A study of Mus musculus with 8 samples.

Results

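The Toll-like receptors (TLRs) form a family of transmembrane proteins that bind conserved parts of microbes and start the innate inflammatory response. The family was taken here as the genes *Tlr1*, *Tlr2*, *Tlr3*, *Tlr4*, *Tlr5*, *Tlr6*, *Tlr7*, *Tlr8*, *Tlr9* and *Tlr13*, chosen by name and not by their values, which makes 10 of the 48795 genes in the files. *Tlr11* and *Tlr12*, the other TLR genes of the mouse, were kept apart as a separate list. RNA was sequenced from peritoneal macrophages (pMacs), the resident phagocytes washed from the abdominal cavity, of 4 wild-type (WT) and 4 CD1d-KO mice, with 1 library per mouse and the replicate numbers 1, 2, 3 and 5 in each genotype. The series description calls the WT mice C57BL/6, and the study calls the controls of the CD1d-KO mice littermates. CD1d-KO mice carry a germline deletion of the locus of CD1d, a molecule that presents lipids to natural killer T (NKT) cells, and therefore lack CD1d in all their cells and lack NKT cells, so that the pMacs developed in animals without either. The study used adult mice matched for age and sex, described the pMacs as purified, and the labels name no treatment of the cells. It asked how CD1d shapes the response of macrophages to TLR ligands, and the comparison here concerns the resting levels of the receptors themselves.

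In the macrophage, the receptors fall into 2 sets by where they meet their ligands. TLR1, TLR2, TLR4, TLR5 and TLR6 sit at the cell surface, where TLR2 pairs with TLR1 or TLR6 to bind bacterial lipopeptides, TLR4 binds lipopolysaccharide and TLR5 binds flagellin. TLR3, TLR7, TLR8, TLR9 and TLR13 work in endosomes, where TLR3 binds double-stranded RNA, TLR7 and TLR8 bind single-stranded RNA or its breakdown products, TLR9 binds DNA with unmethylated CpG and TLR13 binds bacterial ribosomal RNA. All but TLR3 signal through the adaptor MyD88, TLR3 signals through TRIF, and TLR4 uses both. The genes of 3 of the endosomal receptors, *Tlr7*, *Tlr8* and *Tlr13*, lie on chromosome X, with *Tlr7* and *Tlr8* 40.6 kb apart, and *Tlr1* and *Tlr6* lie 18.5 kb apart on chromosome 5.

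Each library held between 13698864 and 19059432 expected counts, the reads that RSEM assigned to genes. The deleted gene *Cd1d1* had 68.2, 175, 96.1 and 141 normalized counts (expected counts scaled to the mean effective library size) in WT replicates 1, 2, 3 and 5. It had 1.14, 0 and 1.1 in CD1d-KO replicates 2, 3 and 5, but 60.7 in the library labelled CD1d-KO replicate 1, which goes against that label. Comparisons follow the labels, and values without replicate 1 are given where they bear on a receptor. Macrophage markers were abundant in all libraries, with a summed level of 23329 to 28358 TPM (a level scaled for transcript length and library size) in WT and 18419 to 28583 TPM in CD1d-KO. B cell markers summed to 166 to 509 TPM in WT and 113 to 862 TPM in CD1d-KO. The 6 neutrophil markers summed to 117 to 173 TPM in WT and 186 to 216 TPM in CD1d-KO, so the genotypes did not overlap in this sum. How often other gene sets separate in this way was not counted. Only 2 of the 6 had enough counts to be tested. Of these, *Csf3r* had mean normalized counts of 3834 (WT) and 4897 (CD1d-KO), and its genotypes overlapped. The means of *S100a8* were only 47.8 (WT) and 85.0 (CD1d-KO), without overlap. Of the 13040 tested genes, 136 likewise had every CD1d-KO library above every WT library. The defining member *Ly6g* was listed at 0 in all 8 libraries. The part of the difference in this sum in the results was not tested. The 8 T and NK cell markers summed to 5.8 to 8.18 TPM in WT and 3.1 to 9.36 TPM in CD1d-KO, with 1 of them, *Ncr1*, at 0 in all 8 libraries. The 5 mesothelial markers summed to 0.03 to 0.1 TPM in WT and 0.06 to 0.19 TPM in CD1d-KO, with 1 of them, *Krt19*, at 0 in all 8 libraries.

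Some promoter windows are printed here because the levels that follow turn on these genes. The RefSeq promoter windows of GRCm38.p6 run from 250 bases before to 50 bases after a start site, and they were found for 8 of the 10 genes (10 windows, since *Tlr1* and *Tlr6* have more than 1 start). The windows were searched on both strands for the core of the interferon-stimulated response element (GAAANNGAA), the interferon gamma activated site (TTCNNNGAA), a core of the NF-kappaB site (GGGANTTCC) and a core of the PU.1 site (GAGGAA). Capitals mark matches to the first 3 of these patterns, each sequence is written 5′ to 3′ on the strand of its gene, and a match is a description of letters, not a site shown to be bound. The *Tlr2* window is at chr3:83841559-83841858 on the minus strand, the *Tlr6* window at chr5:64959117-64959416 on the minus strand and the *Tlr3* window at chr8:45410331-45410630 on the minus strand.
Tlr2: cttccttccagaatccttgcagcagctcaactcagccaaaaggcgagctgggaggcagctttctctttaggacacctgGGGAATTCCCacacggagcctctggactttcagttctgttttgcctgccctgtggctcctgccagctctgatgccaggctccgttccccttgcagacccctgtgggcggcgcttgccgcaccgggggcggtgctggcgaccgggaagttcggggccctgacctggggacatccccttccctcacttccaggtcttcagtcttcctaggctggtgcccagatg
Tlr6: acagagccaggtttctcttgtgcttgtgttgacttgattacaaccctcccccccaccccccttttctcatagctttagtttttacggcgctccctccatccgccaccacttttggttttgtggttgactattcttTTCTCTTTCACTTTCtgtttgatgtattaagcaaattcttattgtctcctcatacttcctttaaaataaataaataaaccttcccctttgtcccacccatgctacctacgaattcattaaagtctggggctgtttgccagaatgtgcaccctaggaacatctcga
Tlr3: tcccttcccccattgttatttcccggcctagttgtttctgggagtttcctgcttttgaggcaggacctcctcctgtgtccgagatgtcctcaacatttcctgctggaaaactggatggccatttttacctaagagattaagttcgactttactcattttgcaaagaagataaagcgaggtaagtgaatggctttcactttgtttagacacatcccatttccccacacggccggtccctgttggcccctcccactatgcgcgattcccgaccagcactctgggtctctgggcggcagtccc

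The *Tlr2* window held the NF-kappaB core, and because this match reads almost the same on both strands it was counted at -172 and at -171 from the start site. Of 32851 promoter windows of the same length, 1.68% held this pattern. The *Tlr6* window held 2 overlapping matches to the interferon-stimulated response core, at -115 and -109, a pattern found in 8.56% of all windows. The *Tlr8* window held 1 match to that core, at -67, and 1 to the interferon gamma activated site, at -106, a pattern found in 8.3% of windows. The other start of *Tlr6* had 2 matches to the interferon gamma activated site, at -3 and 8, and a window of *Tlr1* had 1 at -228. The PU.1 core, present in 28.3% of windows, was found in *Tlr1*, *Tlr8*, *Tlr9* and *Tlr13*. The *Tlr3* window held none of the 4 patterns, which says only that these letters are not in this window.

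*Tlr2* was the most abundant TLR transcript of resting pMacs, and *Tlr5* was barely detected. On the TPM scale, which corrects for transcript length and so allows genes to be compared, *Tlr2* had 511, 542, 684 and 540 TPM in WT replicates 1, 2, 3 and 5. It made up 58.3% to 63.2% of the summed TLR level in the WT libraries and 58.5% to 66.7% in the CD1d-KO libraries, and it ranked 212 among the 23350 genes with a level above 0 in WT. *Tlr13* followed with a WT mean of 138 ± 27.0 TPM (SD, n = 4), then *Tlr7* with 82.5 ± 30.1, *Tlr4* with 82.2 ± 14.7 and *Tlr8* with 32.1 ± 5.08. The lowest WT library of *Tlr2* lay above the highest of *Tlr13*, and the same held for *Tlr4* against *Tlr8* and for *Tlr8* against *Tlr6*. The WT ranges of *Tlr13* and *Tlr7* overlapped across mice, but *Tlr13* was above *Tlr7* in 4 of 4 WT libraries. *Tlr7* was above *Tlr4* in 1 of 4 WT libraries only, so the order of these genes was not separated.

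The remaining receptors were less abundant. *Tlr6* had 12.2 ± 1.62 TPM in WT pMacs, *Tlr3* 8.93 ± 6.71, *Tlr1* 8.22 ± 3.95 and *Tlr9* 6.26 ± 2.49 (SD, n = 4), and each range overlapped the next. *Tlr6* was above *Tlr3* in 3 of 4 WT libraries, *Tlr3* above *Tlr1* in 2 and *Tlr1* above *Tlr9* in 4. *Tlr5* was listed at 0 in WT replicates 1, 2 and 5 and in CD1d-KO replicates 2 and 3. Its expected counts were 6 in WT replicate 3, 1 in CD1d-KO replicate 1 and 2 in CD1d-KO replicate 5, so that it was below 3 counts in 7 of 8 libraries. *Tlr5* did not pass the filter on counts and was not tested. The separate list of *Tlr11* and *Tlr12* summed to 0.16 to 0.54 TPM in WT and 0.04 to 0.2 TPM in CD1d-KO and did not pass the filter on counts either. Summed over the 10 genes, the TLR level was 877, 894, 1134 and 853 TPM in WT replicates 1, 2, 3 and 5 and 901, 885, 1148 and 1058 TPM in the CD1d-KO replicates of the same numbers. The genotypes overlapped in this sum, and the replicate 3 library was the highest of each genotype.

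**Figure D1:**
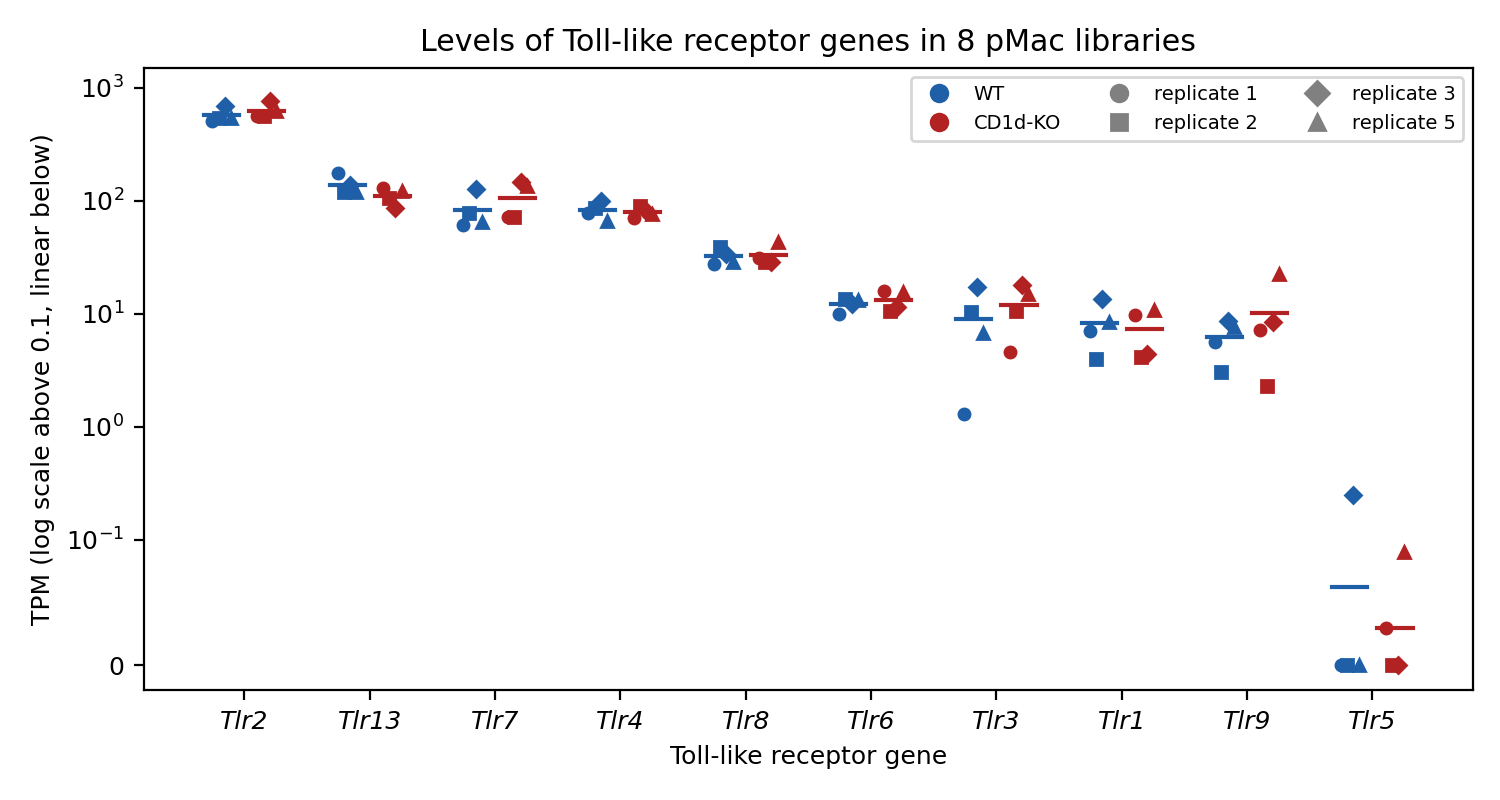
Level of each TLR gene in TPM (y axis, logarithmic above 0.1 and linear below) in the 4 WT libraries (blue) and the 4 CD1d-KO libraries (red), with genes on the x axis ordered by WT mean, symbols for the replicate number and a line for the mean of each genotype. *Tlr2* lay above 500 TPM in all 8 libraries, and *Tlr5* was listed at 0 in 5 of them.

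None of the 9 TLR genes that passed the filter on counts met the study's thresholds for a difference between CD1d-KO and WT pMacs, which were a change of more than 1.5-fold and p below 0.01 after adjustment. The filter turned away only *Tlr5*, and the test was the quasi-likelihood test of edgeR with genotype and replicate number in the model and Benjamini-Hochberg adjustment over 13040 genes. By these thresholds 0 of 9 members were called, beside 0.0383% of all tested genes, and adjusted p ran from 0.233 for *Tlr13* to 0.983 for *Tlr8*. DESeq2, with the same thresholds and model, also called 0 of 9, beside 0.989% of the genes it gave an adjusted p. At an unadjusted p under 0.05, 0 of the 9 were higher, beside 7.35% of all tested genes, and 1 was lower, *Tlr13*, beside 5.01% of all tested genes. The log2 fold change (CD1d-KO minus WT) was above 0 for 6 members and below 0 for 3, with a median of 0.10 against 0.00 for all tested genes. For *Tlr2*, *Tlr4*, *Tlr6*, *Tlr8* and *Tlr13* the 95% interval of the difference lay within a 1.5-fold change in either direction, and for *Tlr1*, *Tlr3*, *Tlr7* and *Tlr9* it reached beyond it, so a change of that size lies within the interval. These intervals include the library labelled CD1d-KO replicate 1. Without replicate 1 the log2 fold change was 0.13 for *Tlr2*, -0.07 for *Tlr4*, 0.05 for *Tlr6*, 0.29 for *Tlr7*, -0.04 for *Tlr8* and 0.46 for *Tlr9*.

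*Tlr13*, the receptor for bacterial ribosomal RNA (ENSMUSG00000033777, chromosome X 106143204 to 106160493, plus strand), was the only member whose genotypes did not overlap in normalized counts. Its normalized counts were 6049, 5063, 5721 and 4746 in WT replicates 1, 2, 3 and 5 and 4560, 4434, 3780 and 4498 in the CD1d-KO replicates of the same numbers. Every CD1d-KO library lay below every WT library, as in 0.905% of all tested genes, and CD1d-KO replicate 3 was the lowest. The CD1d-KO level was 0.802 times that of WT, a log2 fold change of -0.32 (standard error 0.10, 95% interval -0.55 to -0.09). In the quasi-likelihood test of edgeR its unadjusted p was 0.0122 and its adjusted p 0.233, short of the threshold. The log2 ratio within pairs 1, 2, 3 and 5 was -0.41, -0.19, -0.60 and -0.08, lower in 4 of 4 pairs. On the TPM scale, with 176, 119, 137 and 119 TPM in WT and 130, 105, 85.2 and 121 TPM in CD1d-KO, the genotypes overlapped and pair 5 went the other way. Over the alternative settings the log2 fold change ran from -0.40 to -0.23 and the adjusted p from 0.0558 to 0.997. Without replicate 1, whose CD1d-KO library goes against its label, it was -0.29 (adjusted p = 0.526 from edgeR), and without replicate 3 the unadjusted p of edgeR was 0.0585.

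*Tlr2* (ENSMUSG00000027995), the shared partner of TLR1 and TLR6, lies on chromosome 3 from 83836272 to 83841767 on the minus strand, 3.15 Mb from *Cd1d1*. It had 12941, 17019, 21001 and 15863 normalized counts in WT replicates 1, 2, 3 and 5 and 14521, 17436, 25026 and 16918 in CD1d-KO. The CD1d-KO library was the higher in 4 of 4 pairs, by log2 ratios of 0.17, 0.03, 0.25 and 0.09, but the genotypes overlapped widely. The log2 fold change was 0.14 (standard error 0.08, 95% interval -0.04 to 0.32, adjusted p = 0.525 from edgeR). The region around the deleted locus had many small differences: of the 209 tested genes within 10 Mb of *Cd1d1*, 27 were higher and 20 lower at an unadjusted p under 0.05, which is 22.5% against 12.4% of all tested genes, and 66 had a smaller p than *Tlr2*. The nearest tested gene on the side of *Cd1d1*, *Tmem131l*, 55.9 kb away, had a log2 fold change of 0.22 (standard error 0.07, adjusted p = 0.236 from edgeR), and the nearest on the other side, *Plrg1*, 764 kb away, had -0.03 (adjusted p = 0.922 from edgeR). Whether the position of *Tlr2* near the deleted locus has a part in its values was not tested.

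*Tlr4* (ENSMUSG00000039005, chromosome 4 66827584 to 66930284, plus strand), the receptor for lipopolysaccharide, was the member with the narrowest interval. Its normalized counts were 2055, 3081, 3225 and 2090 in WT replicates 1, 2, 3 and 5 and 2110, 2884, 3056 and 2053 in CD1d-KO. Mice of the same number were close to each other, and replicates 2 and 3 were the high ones in each genotype. The log2 fold change was -0.04 (standard error 0.06, 95% interval -0.19 to 0.11, adjusted p = 0.861 from edgeR).

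The other partners of TLR2 differed from each other in how much they varied. *Tlr6* (ENSMUSG00000051498) had 310, 423, 455 and 392 normalized counts in WT replicates 1, 2, 3 and 5 and 374, 398, 458 and 454 in CD1d-KO, with a ratio of 1.48 between the highest and the lowest of the 8 libraries, the smallest of the 9 tested members. Its log2 fold change was 0.10 (95% interval -0.10 to 0.31, adjusted p = 0.697 from edgeR). *Tlr1* (ENSMUSG00000044827) had 149, 117, 342 and 235 normalized counts in WT and 212, 102, 138 and 231 in CD1d-KO. The genotypes overlapped, and the pair of replicate 3, with a log2 ratio of -1.30, was the widest apart. The log2 fold change of *Tlr1* was -0.24 (standard error 0.26, 95% interval -0.85 to 0.37, adjusted p = 0.771 from edgeR), and it turned to 0.11 without replicate 3. Without replicate 1 it was -0.52 (unadjusted p = 0.0738 and adjusted p = 0.597 from edgeR). Of the windows of 75 bases, the read length, in the transcripts of *Tlr1*, 10.6% also occur in other genes, *Tlr6* among them, and 9.25% of those of *Tlr6* occur in *Tlr1*, so part of the split of reads between these neighbours is uncertain.

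Among the endosomal receptors, *Tlr3*, *Tlr7* and *Tlr9* had the highest estimates, and none passed the test. *Tlr3* (ENSMUSG00000031639) had 45.0, 394, 583 and 176 normalized counts in WT replicates 1, 2, 3 and 5 and 122, 273, 554 and 457 in CD1d-KO. The libraries of 1 genotype differed more than the genotypes did, with WT replicate 1 the lowest and a ratio of 13.0 between the highest and the lowest library. The log2 fold change was 0.46 (standard error 0.32, 95% interval -0.29 to 1.21, adjusted p = 0.627 from edgeR), from log2 ratios of 1.40, -0.53, -0.07 and 1.37 in pairs 1, 2, 3 and 5. Without replicate 1 it was 0.23. An antisense gene that overlaps *Tlr3*, *Gm45542*, had at most 1.26 expected counts in any library.

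*Tlr7* (ENSMUSG00000044583), a sensor of single-stranded RNA, had 1532, 2430, 4330 and 2017 normalized counts in WT and 1895, 2109, 4828 and 3819 in CD1d-KO replicates 1, 2, 3 and 5. Replicate 3 was high in each genotype, and CD1d-KO replicate 5 was high beside its WT partner, with a log2 ratio of 0.92. For *Tlr7* the log2 fold change was 0.29 (standard error 0.16, 95% interval -0.08 to 0.67, adjusted p = 0.509 from edgeR). *Tlr8* (ENSMUSG00000040522), its neighbour on chromosome X, had 694, 1139, 986 and 780 normalized counts in WT and 785, 753, 913 and 1162 in CD1d-KO. Its pairs went in both directions, from -0.60 in pair 2 to 0.57 in pair 5, and its log2 fold change was 0.01 (standard error 0.17, 95% interval -0.37 to 0.40, adjusted p = 0.983 from edgeR).

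*Tlr9* (ENSMUSG00000045322), the receptor for CpG DNA, had 166, 111, 309 and 261 normalized counts in WT replicates 1, 2, 3 and 5 and 215, 82.4, 321 and 709 in CD1d-KO. CD1d-KO replicate 5 was the highest of the 8 libraries and CD1d-KO replicate 2 the lowest, 8.61-fold apart. Its log2 fold change was 0.44 (standard error 0.26, 95% interval -0.17 to 1.04, adjusted p = 0.556 from edgeR). The pair of replicate 2 went the other way from the other 3 pairs in *Tlr7* and *Tlr9*. Without that pair the unadjusted p of edgeR was 0.0246 for *Tlr3*, 0.0163 for *Tlr7* and 0.0341 for *Tlr9*, with adjusted p of 0.234, 0.191 and 0.275. Without the pair of replicate 5 the log2 fold change was 0.14 for *Tlr3*, 0.09 for *Tlr7* and 0.04 for *Tlr9*, with an unadjusted p of edgeR of 0.674, 0.474 and 0.814, so the estimates of these 3 members depended on single pairs.

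**Figure D2:**
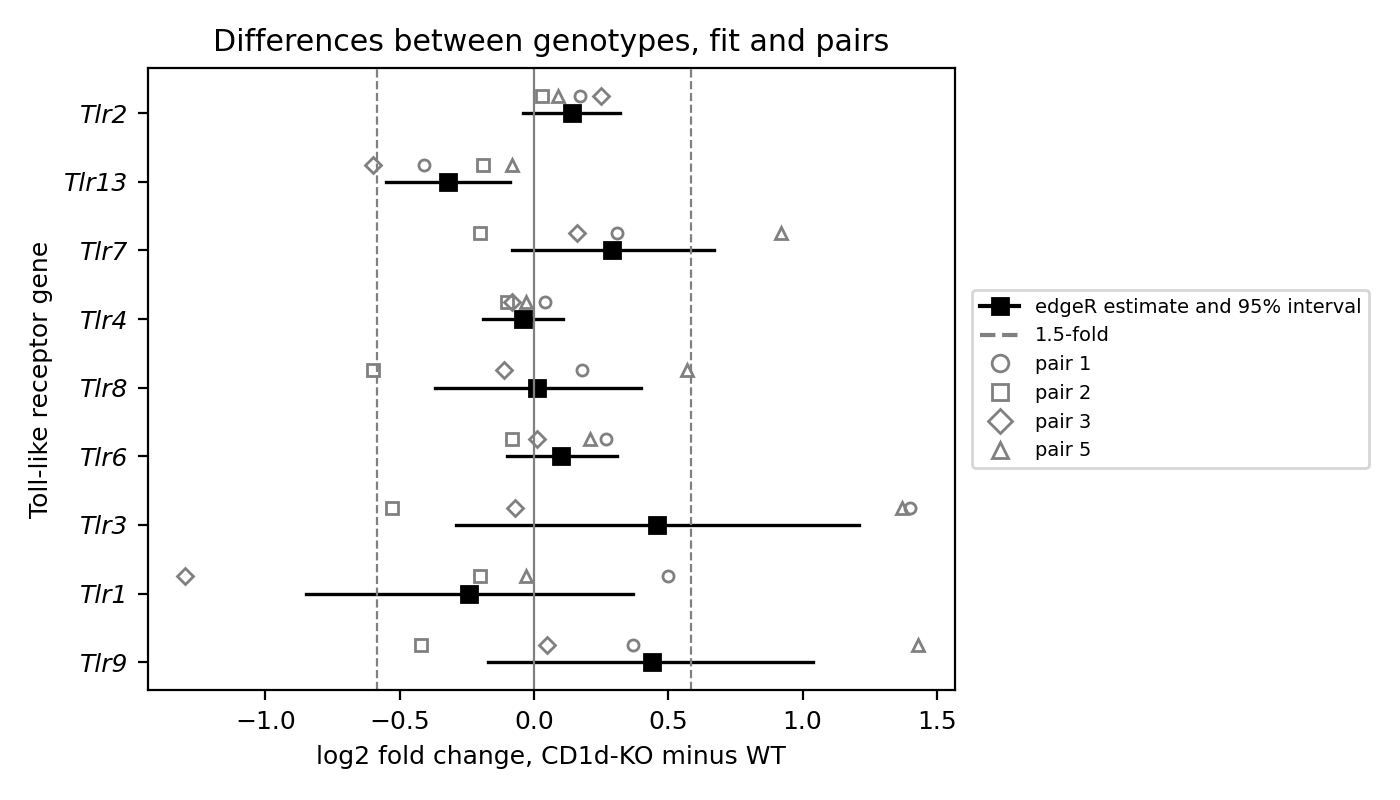
Log2 fold change (x axis, CD1d-KO minus WT) of the 9 tested TLR genes (y axis, ordered by WT level), with the edgeR estimate as a black square, its 95% interval as a line, the log2 ratio of each pair as an open symbol above it and a 1.5-fold change as dashed lines. The interval of *Tlr13* alone leaves out 0, and the 4 pairs of *Tlr3* spread from -0.53 to 1.40.

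The spread between mice had an order that some receptors shared with the interferon-stimulated genes, the antiviral genes that type I interferon switches on. The mean log2 CPM (counts scaled to library size) of a list of 20 such genes was 4.65, 7.71, 8.58 and 7.04 in WT replicates 1, 2, 3 and 5 and 6.39, 7.89, 8.78 and 8.22 in CD1d-KO. WT replicate 1 was the lowest and the replicate 3 libraries the highest, and the CD1d-KO library exceeded its partner by 1.74, 0.19, 0.20 and 1.18 in pairs 1, 2, 3 and 5. Over the 8 libraries, which are paired by number and so not independent of each other, the log2 CPM of *Tlr3* followed this mean with Pearson's r = 0.985 (Spearman's rho = 0.952), *Tlr6* with r = 0.976 (rho = 0.976), *Tlr2* with r = 0.877 (rho = 0.929) and *Tlr7* with r = 0.860 (rho = 0.976). Without the 2 libraries farthest from the median, both of replicate 1, r was 0.925 for *Tlr3*, 0.881 for *Tlr6*, 0.853 for *Tlr2* and 0.913 for *Tlr7*. On log2(TPM + 1) it was 0.998, 0.215, 0.767 and 0.799 in the same order, so the value of *Tlr6* held on the count scale only. The effective transcript length that RSEM gave differed between libraries by up to 1.35-fold for *Tlr6* and 1.65-fold for *Tlr3*. Its part in the value of *Tlr6* was not tested. *Tlr4* and *Tlr8* had r = 0.663 and 0.659, *Tlr9* 0.302, *Tlr1* 0.112 and *Tlr13* -0.544.

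*Tlr9* and *Tlr1* instead followed the level of B cell markers. B cells are common in the peritoneal cavity, and selection of F4/80-positive cells with beads, which the study describes for its stimulation experiments, would remove them; whether it preceded the RNA extraction is not given in the sources used here. The mean log2 CPM of the 9 B cell markers was 4.51, 3.24, 4.21 and 4.77 in WT replicates 1, 2, 3 and 5 and 5.02, 2.55, 4.20 and 5.26 in CD1d-KO. The extremes were those of *Tlr9*, with CD1d-KO replicate 5 the highest and CD1d-KO replicate 2 the lowest. The correlation over the 8 libraries was r = 0.813 for *Tlr9* (rho = 0.595) and r = 0.701 for *Tlr1* (rho = 0.690), but without the libraries of replicate 2 it was 0.398 and 0.136, so it rested on them. Of the 9 B cell markers 0 were higher and 0 lower at an unadjusted p under 0.05, beside 7.35% and 5.01% of all tested genes. With so few markers, these counts leave the B cell content of the genotypes undecided. Their median log2 fold change was 0.17, and none of the markers was at 0 in all libraries. The part of B cells in the levels of *Tlr9* and *Tlr1* was not tested, and in a bulk sample a different share of cells and a different amount of RNA per cell cannot be told apart. The plasmacytoid dendritic cell markers, of a cell type known for TLR7 and TLR9, summed to 3.13 to 8.85 TPM in WT and 3.96 to 18.1 TPM in CD1d-KO.

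**Figure D3:**
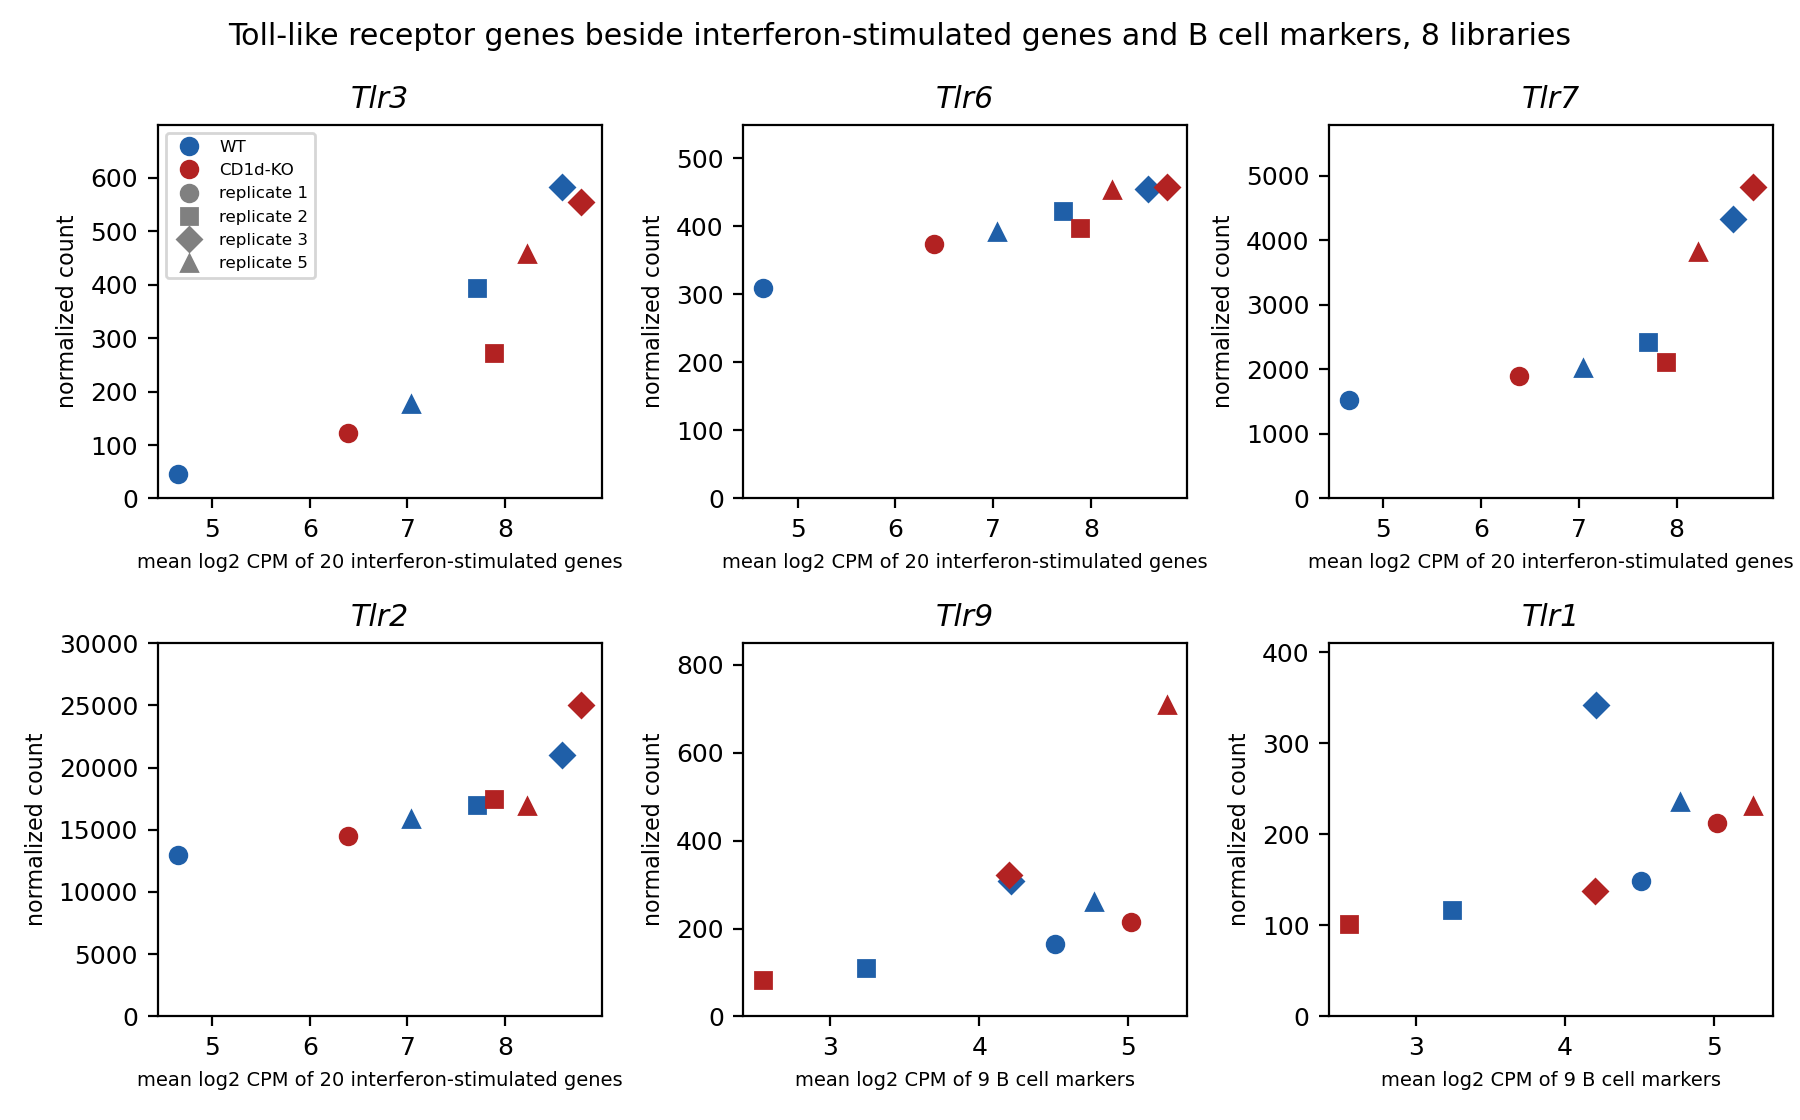
Normalized counts of 6 TLR genes (y axes, from 0) against the mean log2 CPM of 20 interferon-stimulated genes (x axes, *Tlr3*, *Tlr6*, *Tlr7* and *Tlr2*) or of 9 B cell markers (x axes, *Tlr9* and *Tlr1*), with WT libraries in blue, CD1d-KO libraries in red and symbols for the replicate number. *Tlr3* climbs from 45.0 in WT replicate 1 to 583 in WT replicate 3 along the interferon axis, and the 709 of *Tlr9* in CD1d-KO replicate 5 sits at the highest B cell level.

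Some members varied together and others did not. Pearson's r of log2 CPM over the 8 libraries was 0.985 between *Tlr3* and *Tlr6* (on the count scale, where alone *Tlr6* followed the interferon list), 0.891 between *Tlr2* and *Tlr7*, 0.699 between *Tlr1* and *Tlr9* and 0.675 between the neighbours *Tlr7* and *Tlr8*. The neighbours *Tlr1* and *Tlr6* had r = 0.239, *Tlr1* and *Tlr2* 0.0417, *Tlr1* and *Tlr4* -0.245 and *Tlr4* and *Tlr9* -0.328. *Tlr13* had a negative r with 7 of the 8 other tested members, from -0.515 with *Tlr2* to -0.116 with *Tlr4*, and 0.297 with *Tlr1*. Among all other tested genes, those whose log2 CPM was most like that of *Tlr13* over the 8 libraries were *Smarca5* (r = 0.982), *Cnot11* (0.970) and *Smarcad1* (0.954). Those most like *Tlr7* were *Klra2* (0.988), *Cd47* (0.985) and *Vps54* (0.985), and those most like *Tlr2* were *Phc2* (0.988), *Rab22a* (0.985) and *Sh3tc1* (0.981).

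The products of further genes help TLRs bind ligands and reach their compartments. Of 8 co-receptors and ligand carriers, 7 were tested, 1 was higher and 1 lower at an unadjusted p under 0.05, and the median log2 fold change was 0.03. The scavenger receptor gene *Cd36*, whose product assists TLR2 with TLR6, had 26088, 18087, 19075 and 17886 normalized counts in WT replicates 1, 2, 3 and 5 and 17131, 17062, 11827 and 15456 in CD1d-KO. By qPCR, the study described the levels of this transcript as comparable between the genotypes. Every CD1d-KO library sequenced lay below every WT library, as in 0.905% of all tested genes. The *Cd36* estimate, a log2 fold change of -0.40 with a standard error of 0.12, did not meet the threshold (adjusted p = 0.226 by edgeR). *Cd180*, a TLR-like surface receptor, had a log2 fold change of 0.43 (adjusted p = 0.357 from edgeR) and *Lbp*, which encodes the lipopolysaccharide-binding protein, 0.19 (adjusted p = 0.467 from edgeR). Of 10 genes for folding, trafficking and cleavage, all tested, 0 were higher and 1 lower, with a median of 0.03, and these counts stand beside the 7.35% of all tested genes that were higher and the 5.01% that were lower. These were led by *Slc29a3*, a lysosomal nucleoside transporter, at -0.25 (adjusted p = 0.244 from edgeR), *Unc93b1*, the chaperone that takes endosomal TLRs from the endoplasmic reticulum, at 0.16 (0.509) and *Ctss*, a protease that cleaves them, at 0.12 (0.671).

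The signalling genes were divided into adaptors, kinases and ligases, transcription factors and inhibitors. Their counts stand beside the 7.35% of all tested genes that were higher and the 5.01% that were lower at an unadjusted p under 0.05. Of 6 adaptors, 5 were tested, 1 was higher and 0 lower at an unadjusted p under 0.05, with a median log2 fold change of 0.14. *Ticam2*, the bridge between TLR4 and TRIF, had 0.26 (adjusted p = 0.358 from edgeR), *Pik3ap1* 0.16 (0.419) and *Myd88* 0.14 (0.439), each with a positive sign in 4 of 4 pairs. Of 20 kinases and ubiquitin ligases, 1 was higher and 0 lower, with a median of -0.01, and the lowest p were those of the ligase gene *Peli1* (0.37, adjusted p = 0.149), *Irak1* (-0.13, 0.477) and *Traf3* (0.16, 0.482). Of 12 transcription factors, 1 was higher and 1 lower, with a median of 0.05. *Irf8*, a factor of myeloid development, had -0.43 (standard error 0.08, adjusted p = 0.101 from edgeR), *Irf7*, itself an interferon-stimulated gene, had 0.90 (standard error 0.22, adjusted p = 0.15 from edgeR) and *Relb* 0.17 (0.455). Of 14 inhibitors, 13 were tested, 2 were higher and 0 lower, with a median of 0.12, and their lowest p were those of the phosphatase gene *Dusp1* (0.44, adjusted p = 0.113), *Trafd1* (0.43, 0.160) and *Nfkbia* (0.14, 0.503).

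Several of the genes that TLR signals switch on, and of the sensors that act beside TLRs, were higher in CD1d-KO at the unadjusted threshold. At that threshold 7.35% of all tested genes were higher and 5.01% lower. Of 20 response genes, 17 were tested, 6 were higher and 0 lower at an unadjusted p under 0.05, but the median was 0.05. Without replicate 1, 6 response genes were higher and 2 lower, with a median of 0.02. The chemokine gene *Cxcl1* had 907, 2387, 2324 and 1164 normalized counts in WT replicates 1, 2, 3 and 5 and 2003, 3870, 4034 and 2562 in CD1d-KO. Each CD1d-KO library exceeded its partner (log2 fold change 0.94 with a standard error of 0.10, adjusted p = 0.0161 by edgeR), short of the threshold of 0.01. *Nos2*, the inducible nitric oxide synthase, had a log2 fold change of 1.74 (standard error 0.27) and the chemokine gene *Ccl5* 1.15 (standard error 0.18), each with an adjusted p of 0.0501 from edgeR. Of 14 cytosolic sensors of nucleic acids and NOD-like sensors, 13 were tested, 6 were higher and 0 lower, with a median of 0.39, led by *Nod1* (0.43, adjusted p = 0.0811), *Nod2* (0.40, 0.154) and *Zbp1* (0.98, 0.194). Without replicate 1, 5 sensors were higher and 0 lower, with a median of 0.27. Of the 20 interferon-stimulated genes, 18 were higher and 0 lower, with a median of 0.75, and 13 were higher without replicate 1, with a median of 0.46. Their lowest p were those of *Oasl1* (1.04, adjusted p = 0.160), *Mx1* (1.12, 0.201) and *Oas2* (0.59, 0.211). By edgeR, 0 genes of all these lists passed the thresholds of the study, beside 0.0383% of all tested genes. DESeq2 called 0.989% of the genes it gave an adjusted p, and its calls within these lists were not counted.

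*Wdfy1*, whose product has been described as linking TLR3 and TLR4 to TRIF, was in none of the lists and passed the thresholds. It had 297 ± 33.3 normalized counts over the WT libraries and 747 ± 149 over those of CD1d-KO (SD, n = 4, log2 fold change 1.32, adjusted p = 0.00381 from edgeR). It also passed with DESeq2 (adjusted p = 2.16e-18) and, by edgeR, without replicate 1 (0.00703) and without replicate 2 (0.00601). By edgeR it did not pass without replicate 3 (0.0643), without replicate 5 (0.0352) or without the replicate block (0.0294). With limma it did not pass on log2(TPM + 1) (0.295) or log2(TPM + 0.1) (0.313). Over the alternatives its log2 fold change ran from 0.73 to 1.40.

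**Figure D4:**
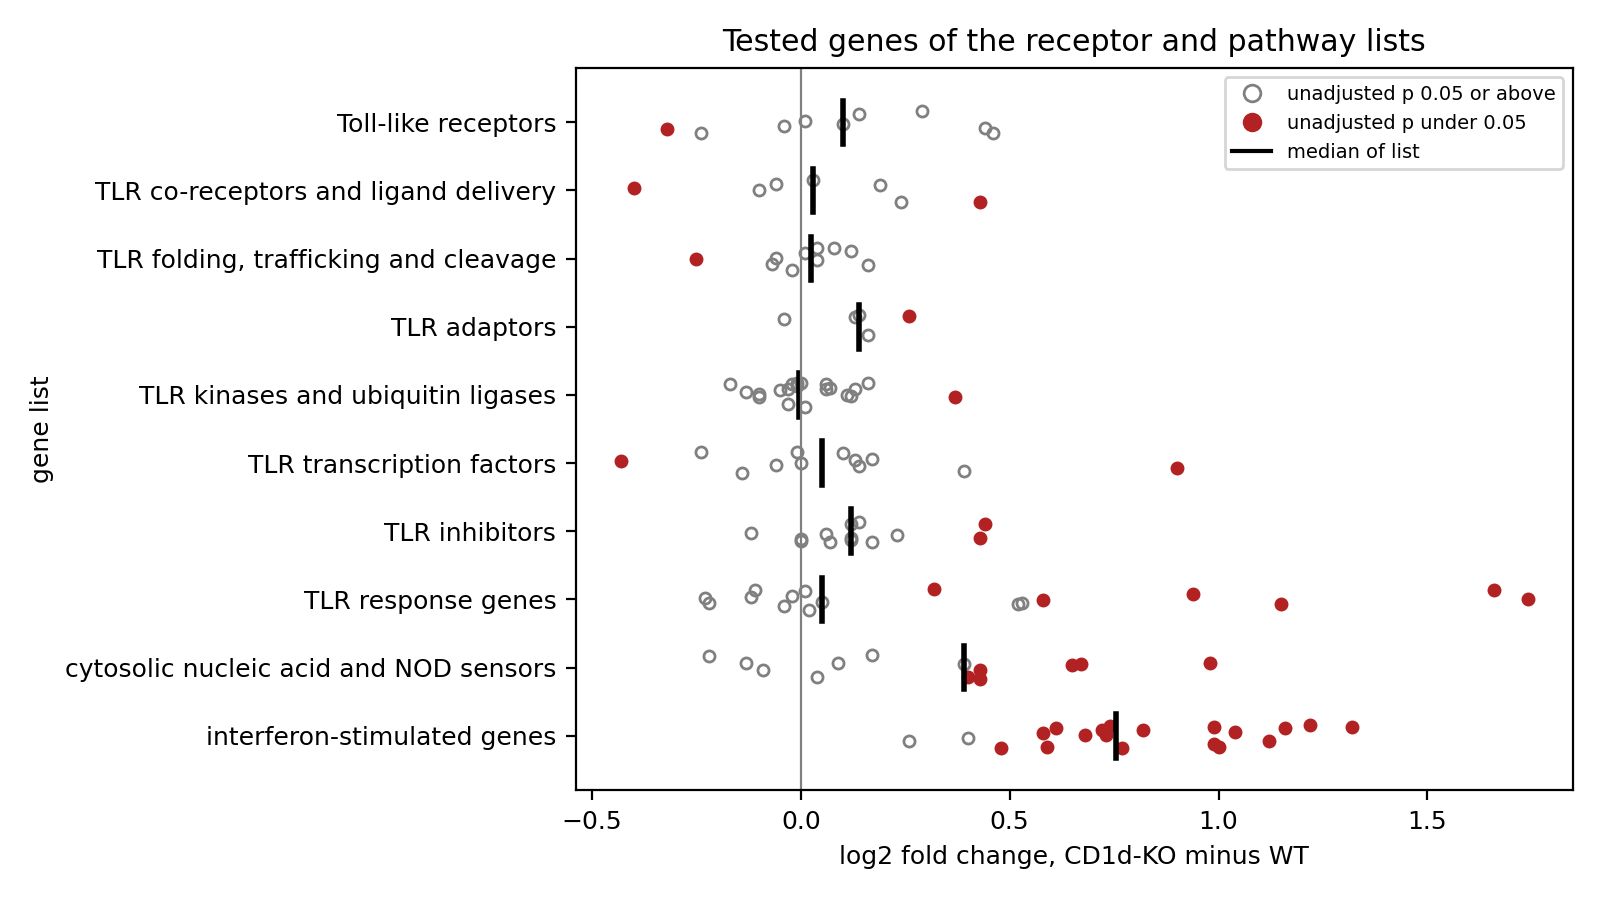
Log2 fold change (x axis, CD1d-KO minus WT) of every tested gene of the TLR family and of 9 lists of related genes (y axis), with filled red points for genes at an unadjusted p under 0.05, open points for the others and a black bar for the median of each list. The medians of the TLR genes and the 7 co-receptor, trafficking, signalling and response lists lie between -0.01 and 0.14, and those of the cytosolic sensors and interferon-stimulated genes at 0.39 and 0.75.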

How the data were processed

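The authors made polyA libraries of pMac RNA, sequenced single-end reads, trimmed them with Cutadapt, aligned them to GRCm38 with STAR 2.5.2a and estimated gene levels with RSEM 1.3.0, and they deposited per library the expected counts, which are not normalized, and the TPM values, which the authors scaled for transcript length and depth. Reads that match several genes are divided among them by RSEM, and the strand setting is not given in the sources used here. Depth limits the genes with few counts.

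Expected counts were rounded. In edgeR 4.0.16 (R 4.3.3), the 13040 genes that passed filterByExpr were scaled by TMM and fitted with the quasi-likelihood test on genotype and replicate number, with Benjamini-Hochberg adjustment, and a prior count of 2 was used for log2 CPM. The test was run on simulated data before use. Replicate number was kept because libraries of the same number deviated together from their genotype means (r = 0.487, 0.387, 0.505 and 0.207 for replicates 1, 2, 3 and 5). The highest r with another number was -0.0148, 0.0254, 0.0586 and 0.22, so that replicate 5 was no closer to its own number. The p-values set the genotype difference against the variation between libraries that remains once replicate number is fitted. Gene positions are from GENCODE M21, which held 48435 of the 48795 gene IDs, and promoters from RefSeq. No libraries were copies of each other, with a chi-square per degree of freedom of at least 12.9 over 28 pairs.

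The text names the 10 TLR genes, *Cd1d1*, *Wdfy1*, the 3 tested genes of each pathway list with the lowest unadjusted p, the nearest tested genes beside *Tlr2* and the 3 genes most like each of the 3 TLR genes with the lowest p. The genes and the lists were chosen with earlier results of these data known. Alternatives were no replicate block, other scaling, no filter, DESeq2 1.42.0, bias-adjusted quasi-likelihood, limma 3.58.1 on log2(TPM + 1) and log2(TPM + 0.1), counts not rounded, each replicate left out, the library labelled CD1d-KO replicate 1 left out without the block, and a looser threshold.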

Additional observations from a re-analysis of the deposited data

Results flagged for a closer look

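In groups of 4 libraries, a library was marked where its gap to the nearest other was a larger share of the group's range than Dixon's 95% critical value allows, which chance does in about 1 of 20 groups. Of the 20 groups of TLR genes, 2 were marked. *Tlr13* had 3780 normalized counts in CD1d-KO replicate 3, below the 4434 to 4560 of the other CD1d-KO libraries. *Tlr5* had 7.21 normalized counts in WT replicate 3 and 0 in the other WT libraries, which rests on 6 expected counts. *Cd1d1*, the check of the labels, had 60.7 normalized counts in the library labelled CD1d-KO replicate 1 and 0 to 1.14 in the other CD1d-KO libraries.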

How the results depend on the processing

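No TLR gene was called under any of the 14 alternatives, and 113 of 117 recomputed log2 fold changes of the members kept their direction and their side of the adjusted threshold. The exceptions were *Tlr1* at 0.11 without replicate 3 (range -0.52 to 0.11 when 1 replicate was left out), *Tlr4* at 0.03 without the replicate block and without CD1d-KO replicate 1, and *Tlr8* at -0.04 without replicate 1 and -0.17 without replicate 5 (range -0.17 to 0.22). The number of members at an unadjusted p under 0.05, 1 in the fit reported, was 4 with no filter on counts (*Tlr3*, *Tlr7*, *Tlr9* and *Tlr13*), 2 with limma on log2(TPM + 1) (*Tlr3* and *Tlr13*) and 0 to 4 when 1 replicate was left out, 0 without replicate 3 and 4 without replicate 2. Of all genes, 5 were called, against 3 without the replicate block, 236 with no filter on counts (25377 genes tested), 105 with DESeq2, 3 with limma on log2(TPM + 1), 3 on log2(TPM + 0.1), 53 at an adjusted p under 0.05 with no fold threshold and 3 to 22 when 1 replicate was left out. The causes of these changes were not tested. Of 221 list medians, 216 moved by less than their spread, and of 90 correlations with the interferon and B cell lists, 87 did. The correlations without replicates or on TPM were chosen after seeing the data. The 95% intervals of *Tlr1*, *Tlr3*, *Tlr7* and *Tlr9* reached beyond a 1.5-fold change, and *Tlr5* had too few counts to test.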

Other observations

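Marker lists of cells of the peritoneal cavity were counted at an unadjusted p under 0.05, which 7.35% of all tested genes passed as higher and 5.01% as lower. Of the 8 markers of large peritoneal macrophages, 3 were higher and 0 lower, with a median log2 fold change of 0.24. By sign, 5 were above 0, among them *Timd4*, a receptor for phosphatidylserine on resident macrophages (0.39, adjusted p = 0.200 from edgeR). The 3 below 0 were *Cd9* (-0.27), *Alox15* (-0.12) and *Gata6* (-0.09). Of the 7 general macrophage markers, 1 was higher and 0 lower, with a median of 0.08, and of the 9 markers of small peritoneal macrophages and dendritic cells, 5 were tested and 0 differed, with a median of 0.15. Of the 6 neutrophil markers 2 were tested and both were higher, *S100a8* (47.8 ± 3.07 and 85.0 ± 3.78 normalized counts in WT and CD1d-KO, SD, n = 4) and *Csf3r*, the receptor for granulocyte colony-stimulating factor (3834 ± 974 and 4897 ± 960), while *Ly6g* was listed at 0. Of the 6 mast cell markers 4 were tested, and 0 passed this p, but all 4 were below 0, with a median of -0.51. Without replicate 1, 3 mast cell markers were lower and 0 higher at this p, with a median of -1.13. The share of all genes in that fit was not counted. Of the 5 plasmacytoid dendritic cell markers 3 were tested and 0 differed, with a median of 0.50, of the 8 T and NK cell markers only *Lck* was tested, at 0.10, and of the 5 mesothelial markers 0 passed the filter on counts.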
